A study of Mus musculus with 11 samples.

Results

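The ligands and receptors of axon guidance were examined in the hypothalamus of male mouse offspring on postnatal day 21 (P21). The genes were chosen by symbol and comprise semaphorins, plexins, neuropilins, ephrins, Eph receptors, Slits, Robos, netrins, netrin receptors of the Dcc, Unc5 and Dscam families, Neo1 and repulsive guidance molecules. The symbol rule found 78 genes on the array, carried by 100 probes, and 76 of them had a probe that 5 or more of the 11 arrays measured well above background, among 17185 genes tested. Rgmb and Unc5d did not pass this filter. Unc50, a Golgi protein gene that shares only the letters of its symbol with the Unc5 receptors, was found by the rule as well, which leaves 75 genes without it.

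All samples came from male offspring of C57BL/6N mice, and the groups differed in the diet of the dams. CO dams (n = 5 offspring samples) ate standard chow and HFD dams (n = 6 offspring samples) a high-fat diet, each from before mating through gestation and lactation. The samples labelled SD in the deposited titles are the CO samples. The labels do not say which dam each sample came from, and the study took at most 2 offspring from a dam. The titles of the 5 CO samples carry only 2 different leading numbers, and those of the 6 HFD samples share a stem. What these stand for was not given, so samples of a group may be related by litter or cage. The p-values below measure the spread between these samples, not between litters.

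Growing axons steer by cues that attract or repel the growth cone. Netrins act through Dcc for attraction and through Unc5 receptors for repulsion, Slits repel through Robo receptors, secreted semaphorins act through neuropilins and plexins, and ephrins and Eph receptors signal at contacts between cells, in both directions. In the hypothalamus such cues guide, among others, projections of the arcuate nucleus, which mature in the mouse during the suckling period, and many of the genes stay active in adult neurons, glia and vessels.

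The arrays of the groups differed in more than the diet. CO and HFD arrays were scanned in separate sessions 337 days apart with different versions of the Agilent protocol, and diet and scan session cannot be told apart. Between 82.5% and 85.7% of the mouse spots were well above background on CO arrays and between 71.8% and 77.4% on HFD arrays. The tissue carried its defining markers, since 9 of 10 hypothalamic markers were well above background on all arrays, while Sim1 was not well above background on any CO array. Of these 10 markers Hcrt, Pmch and Sim1 were higher in HFD, 0 were lower and 7 were not called. Sim1 passed the filter through the HFD arrays alone, and its call rests on CO signals not well above background. Markers of neighbouring tissue also moved. Of 12 striatal markers 9 were lower in HFD, 0 were higher and 3 were not called, and their summed level ranged from 4.97 to 7.11 in CO and from 4.56 to 5.71 in HFD. Of 10 thalamic markers 7 were higher, 1 was lower and 2 were not called, with summed levels of 3.84 to 4.66 in CO and 4.63 to 5.14 in HFD. Of 11 markers of cortex and hippocampus 5 were lower, 1 was higher and 5 were not called. Their summed level ranged from 3.01 to 4.26 in CO and from 1.72 to 3.03 in HFD. Neuronal markers were higher in 5 of 10, lower in 1 and not called in 4, with summed levels of 7.17 to 7.32 in CO and 7.49 to 7.64 in HFD. The part of these shifts in the results below was not tested. In whole tissue, fewer cells of a type and less RNA per cell cannot be told apart.

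The guidance genes moved in both directions. Of the 76 genes, 19 were higher in HFD (25%), 25 were lower (32.9%) and 32 were not called, by limma at an adjusted p under 0.05. Over all genes tested the shares called were 21.9% higher and 44.5% lower. The median log2 difference, HFD minus CO, was -0.07 for the guidance genes and -0.18 for all genes tested. Every HFD value lay above every CO value for 16 of the 76 guidance genes, against 2746 of the 17185 genes tested (16.0%). Every HFD value lay below every CO value for 20 of the 76, against 5304 of the 17185 (30.9%). The 19 genes that rose were led by the netrin receptor Dcc, the ephrin-A receptors Epha3 and Epha5 and the secreted semaphorin Sema3d, and the 25 that fell by Epha1, Ephb2, Efna4 and Plxna1. Ntn5 fell as well, but only a bound can be given for its size. The Epha5 results in this paragraph are from its brightest probe, and its other tested probe was called lower (log2 difference -0.56). With arrays scaled to the spike-in RNAs, which moved the median of all genes to -0.85, only Dcc, Epha3, Epha5, Sema3c and Sema3d were still called higher. The Rank Product test, which is the test in the study's methods, called Dcc, Epha3, Epha5 and Sema3d higher and Ntn5 lower.

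**Figure D1:**
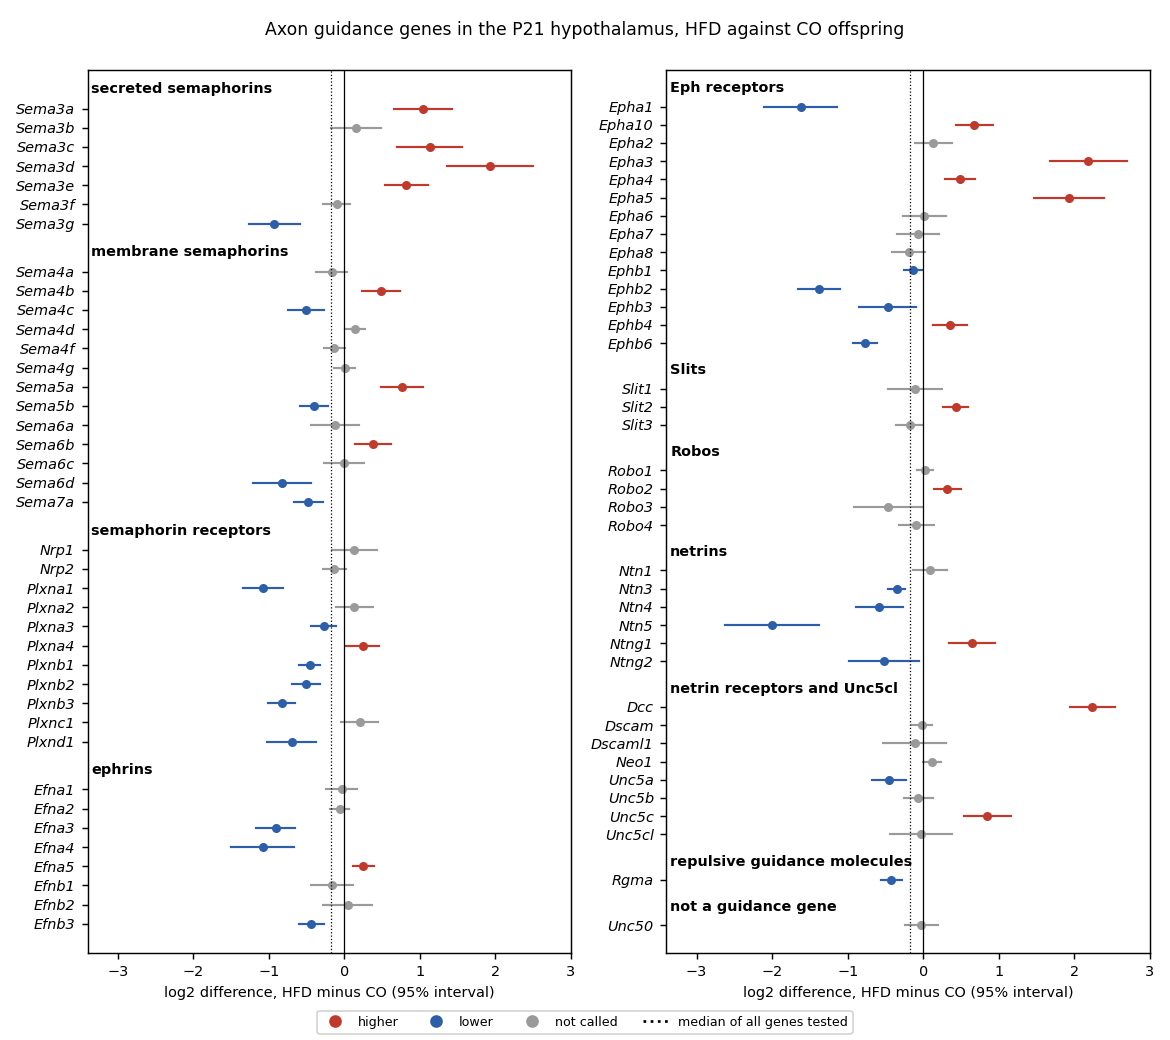
Log2 difference between HFD (n = 6) and CO (n = 5) samples for each of the 76 measured genes, grouped by family, with 95% confidence intervals from limma before adjustment for multiple tests; colours mark genes called at an adjusted p under 0.05. Most genes lie within 1 unit of 0, and 6 called genes lie above 1 and 5 below -1, of which Ntn5 was not well above background on any HFD array and has only a bound on its difference.

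Values for single samples are given as levels, meaning the log2 signal of the gene's brightest probe relative to the 75th percentile of its array. Levels of different genes come from different probes and are not compared with each other.

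Of the secreted semaphorins, which act on axons at a distance, 57.1% were called higher, against 21.9% of all genes tested. Called lower were 14.3%, against 44.5% of all genes tested. The share rests on 7 genes, and the call of Sema3a among them depends on the probe. Of these 7 class 3 genes, Sema3a, Sema3c, Sema3d and Sema3e were higher, Sema3g was lower, and Sema3b and Sema3f were not called, with a median log2 difference of 0.82. Sema3d had levels of -5.65, -6.37, -4.86, -5.34 and -6.50 in the CO samples. Its HFD levels ran from -4.0 over a median of -3.81 to -3.60. The groups did not overlap, and the CO samples were far more scattered than the HFD samples. Sema3d was thus 3.82-fold higher (log2 difference 1.93, SE 0.26, limma adjusted p = 5.51e-05).

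Sema3c, a cue for migrating neural crest cells and cortical axons, had CO levels of -0.78, -1.68, -0.63, -0.69 and -1.59. Its HFD levels were at lowest -0.08, at the median 0.05 and at highest 0.22. CO replicates 2 and 5 lay apart from the other 3 CO samples, and all CO samples lay below all HFD samples. The log2 difference was 1.13 (SE 0.20, limma adjusted p = 0.000367). Sema3a, the prototype repellent of growth cones, had CO levels of -3.37, -3.99, -3.63, -3.61 and -3.70. In HFD the lowest level of Sema3a was -3.16, the median -2.50 and the highest -2.25. The groups did not overlap on this probe, on which the gene was 2.05-fold higher (log2 difference 1.04, SE 0.18, limma adjusted p = 0.000305), whereas another probe of Sema3a went the other way, as described below. Sema3e, a ligand that can act on Plxnd1 without a neuropilin, rose by 0.82, and Sema3g fell by 0.93 on the log2 scale. Sema3b (0.16) and Sema3f (-0.10) did not pass the test. When arrays were scaled to the spike-in RNAs, Sema3a and Sema3e were no longer called, and with the mean over its probes Sema3a was not called either (log2 difference 0.12, limma adjusted p = 0.341).

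The membrane-bound semaphorins were divided, with 23.1% called higher and 30.8% lower, against 21.9% and 44.5% of all genes tested. Of 13 genes, Sema5a (log2 difference 0.76), Sema4b (0.49) and Sema6b (0.38) were higher, and Sema6d (-0.82), Sema4c (-0.51), Sema7a (-0.48) and Sema5b (-0.40) were lower. The 2 class 5 genes, which carry thrombospondin repeats, were called in opposite directions. For Sema6b the samples of the groups overlapped. The other 6 had log2 differences from -0.17 (Sema4a) to 0.14 (Sema4d) and were not called.

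Of the 11 semaphorin receptors, 6 were lower (54.5%, against 44.5% of all genes tested), 1 was higher and 4 were not called. Among the 9 plexins, the signalling receptors of semaphorins, 6 were lower, 1 was higher and 2 were not called, and the neuropilins Nrp1 (0.13) and Nrp2 (-0.13), the co-receptors of class 3 semaphorins, were not called. Plxna1 had CO levels of -2.34, -1.47, -1.83, -1.86 and -1.76. Among HFD samples Plxna1 ranged from -3.05 to -2.84 around a median of -2.92. The groups did not overlap, and the HFD samples lay close together. Plxna1 fell by 1.08 on the log2 scale (SE 0.12, limma adjusted p = 1.75e-05). All 3 plexin-B genes, receptors of class 4 semaphorins and, for Plxnb3, of Sema5a, were lower without overlap of the groups. Plxnb3, a plexin of oligodendrocytes, had a mean CO level of 2.71 ± 0.075 (SD, n = 5) against a mean HFD level of 1.88 ± 0.16 (SD, n = 6), a log2 difference of -0.83. Of 10 oligodendrocyte markers 7 were lower, 1 higher and 2 not called, and their summed level was 8.45 to 8.63 in CO and 8.24 to 8.57 in HFD. Plxnb2 fell by 0.51 and Plxnb1 by 0.46 on the log2 scale. Plxnd1 (-0.70), the Sema3e receptor, and Plxna3 (-0.27) were also lower, Plxnd1 with overlapping groups. Plxna4 was 0.25 higher with an adjusted p of 0.0477 and overlapping groups, a call that was lost in 14 of 22 alternative settings. Plxna2 (0.13) and Plxnc1 (0.20) were not called.

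Among the ephrins, the membrane-bound ligands of Eph receptors, Efna4 (-1.08), Efna3 (-0.91) and Efnb3 (-0.44) were lower, Efna5 (0.25) was higher, and Efna1, Efna2, Efnb1 and Efnb2 were not called. The ephrin shares were 12.5% higher and 37.5% lower, against 21.9% and 44.5% of all genes tested. Efna4 had CO levels of -4.91, -4.71, -4.58, -4.27 and -4.0. In HFD the lowest Efna4 level was -6.22, the median -5.48 and the highest -5.30. No HFD sample reached the CO samples, and HFD replicate 1 stood below the other HFD samples. The difference had an SE of 0.19 and a limma adjusted p of 0.000391. With the background corrected by normexp, Efna4 was no longer called.

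The Eph receptors, the largest family of receptor tyrosine kinases, held the widest spread. Of 14 genes 5 were higher (35.7%, against 21.9% of all genes tested), 5 were lower (35.7%, against 44.5%) and 4 were not called. Of the 9 EphA genes, which mainly bind ephrin-A, 4 were higher (Epha3, Epha5, Epha10 and Epha4), only Epha1 was lower, and Epha2, Epha6, Epha7 and Epha8 were not called. Of the 5 EphB genes, which mainly bind ephrin-B, 4 were lower (Ephb2, Ephb6, Ephb3 and Ephb1) and Ephb4 was higher. The shares were 44.4% higher and 11.1% lower for EphA genes, and 20% higher and 80% lower for EphB genes. These counts depend on the choice of probe. Another probe was called lower for Epha5 (-0.56) and Ephb4 (-0.39), and another was called higher for Epha7 (1.22). The calls of Ephb1 and Ephb3 were lost in many alternative settings, as given below. That EphA and EphB genes differ was not tested.

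Epha3 had CO levels of -5.57, -6.77, -5.72, -5.61 and -6.58. Its HFD levels ran from -4.31 over a median of -3.83 to -3.62. All HFD samples exceeded all CO samples, with CO replicates 2 and 5 the lowest. The gene was 4.55-fold higher (log2 difference 2.19, SE 0.23, limma adjusted p = 1.06e-05). Epha5 had CO levels of -0.98, -1.73, -0.52, -0.38 and -1.38 on its brightest probe. On that probe the HFD levels were at lowest 0.80, at the median 0.94 and at highest 1.07. CO replicates 2 and 5 were again the lowest, and the 6 HFD samples agreed closely. The log2 difference was 1.93 (SE 0.21, limma adjusted p = 1.25e-05). This probe was the brightest over all arrays and in HFD, but in CO another Epha5 probe was brighter (mean level 0.23 against -1.0), so the choice of probe used the high HFD values, and the other probe was lower in HFD, as described below. Epha10 (0.68) and Epha4 (0.49) rose without overlap of the groups, and neither was called higher after scaling to the spike-in RNAs, where Epha4 had a log2 difference of -0.18.

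Epha1, an Eph receptor of epithelia, had CO levels of -1.76, -1.78, -1.47, -1.76 and -2.04. Among HFD samples Epha1 ranged from -4.11 to -2.70 around a median of -3.33. The groups did not overlap, and here the HFD samples were the more scattered. Epha1 was 3.08-fold lower (log2 difference -1.62, SE 0.22, limma adjusted p = 6.01e-05). Ephb2, a receptor at axon tracts and excitatory synapses, had CO levels of -2.43, -1.76, -2.21, -2.06 and -1.71. In HFD its lowest level was -3.62, the median -3.39 and the highest -3.28. The lowest CO sample was still well above the highest HFD sample, and Ephb2 was 2.60-fold lower (log2 difference -1.38, SE 0.13, limma adjusted p = 4.20e-06). Ephb6 (-0.77), a kinase-dead member, fell without overlap. Ephb3 (-0.47) and Ephb1 (-0.13, adjusted p = 0.0494) were called with overlapping groups, and these calls were lost in 7 and 14 of the 22 alternative settings.

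The sequences before the start sites of these 4 Eph genes, the largest changes of the family in each direction, are shown from RefSeq on the mouse assembly GRCm38.p6. Each is the 250 bases upstream of the start site used, 5′ to 3′ on the gene's strand, with the GC box GGGCGG or its complement CCGCCC in capitals. For Epha5, Epha1 and Ephb2 this site lies inside the annotated gene. The windows of Epha5 and Ephb2 thus lie wholly within the gene, and that of Epha1 in part. Epha3 lies on the minus strand (chr16:63864176-63864425), as do Epha5 (chr5:84417383-84417632), Epha1 (chr6:42373269-42373518) and Ephb2 (chr4:136836013-136836262).
Epha3: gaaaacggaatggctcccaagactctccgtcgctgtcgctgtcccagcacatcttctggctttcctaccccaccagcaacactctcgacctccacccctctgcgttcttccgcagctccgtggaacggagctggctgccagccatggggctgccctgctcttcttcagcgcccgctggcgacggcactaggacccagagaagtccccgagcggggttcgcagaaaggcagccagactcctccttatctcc
Epha5: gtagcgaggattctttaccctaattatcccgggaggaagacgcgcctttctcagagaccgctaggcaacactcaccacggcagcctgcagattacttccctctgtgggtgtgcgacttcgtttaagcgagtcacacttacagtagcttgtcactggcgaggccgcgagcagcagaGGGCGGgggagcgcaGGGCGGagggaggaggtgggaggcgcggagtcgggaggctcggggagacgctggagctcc
Epha1: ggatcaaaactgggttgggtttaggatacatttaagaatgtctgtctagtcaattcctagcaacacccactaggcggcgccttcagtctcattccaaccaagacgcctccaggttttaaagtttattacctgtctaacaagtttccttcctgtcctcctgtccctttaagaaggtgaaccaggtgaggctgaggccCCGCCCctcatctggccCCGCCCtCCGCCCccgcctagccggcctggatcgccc
Ephb2: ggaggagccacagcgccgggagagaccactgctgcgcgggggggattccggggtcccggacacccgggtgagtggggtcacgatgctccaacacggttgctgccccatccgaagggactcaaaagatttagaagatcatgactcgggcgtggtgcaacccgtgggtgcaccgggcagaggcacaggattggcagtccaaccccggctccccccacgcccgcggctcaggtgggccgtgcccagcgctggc
Epha5 held 2 GC boxes and Epha1 held 3 in these windows, and Epha3 and Ephb2 held 0, so a higher and a lower gene stood on each side. In windows of 250 bases before to 50 bases after the start, GGGCGG was found on either strand in 70.4% of 81 windows of 65 guidance genes and in 54.5% of the windows of all genes tested. The share was 66.7% for guidance genes called higher and 69.2% for those called lower. CCAAT stood in 29.6% of the guidance windows against 37.6% of all windows, and TATAAA in 2.47% against 9.69%, both strands searched. The median GC content was 64.3% against 59.0%. A match describes the letters of the window only.

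Few Slits and Robos passed the test. Called higher were 33.3% of the 3 Slits and 25% of the 4 Robos, against 21.9% of all genes tested. None was lower, against 44.5% of all genes tested. Slit2, a secreted repellent, was 0.43 higher, and Slit1 (-0.11) and Slit3 (-0.18) were not called. Robo1, a main Slit receptor, had CO levels of 0.77, 0.80, 0.80, 0.77 and 0.76. For Robo1 in HFD the lowest level was 0.70, the median 0.80 and the highest 0.89. The CO samples all lay within the range of the HFD samples, and the 95% interval of the log2 difference ran from -0.08 to 0.13 (limma adjusted p = 0.644). Robo2 had CO levels of -0.48, -0.57, -0.65, -0.52 and -0.44. Its HFD levels were at lowest -0.42, at the median -0.18 and at highest -0.0027. The groups were separate by a narrow margin, and the log2 difference was 0.32 (SE 0.08, limma adjusted p = 0.00539). Robo3 (-0.46), which governs midline crossing, was not called (limma adjusted p = 0.0660), and its CO replicate 5 was far above the other CO samples. Robo4 (-0.09), a receptor of vessels, was not called. After scaling to the spike-in RNAs, Slit2 and Robo2 had log2 differences of -0.24 and -0.35.

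Of 6 netrins, 4 were lower (66.7%, against 44.5% of all genes tested), 1 was higher and Ntn1 was not called, and among the 4 Ntn5 has only a bound and the call of Ntng2 was lost in most settings. Ntn1, the classical attractant of commissural axons, had CO levels of -2.28, -2.06, -2.41, -2.20 and -2.30. Its HFD levels ran from -2.35 over a median of -2.20 to -1.78. The groups overlapped, and the log2 difference was 0.09 with a 95% interval from -0.13 to 0.32 (limma adjusted p = 0.436). Ntn5 was the dimmest case, with CO levels of -7.18, -6.84, -6.68, -7.06 and -5.70. Its HFD levels ran from -9.14 over a median of -8.88 to -8.07. The groups did not overlap, but no HFD array measured the probe well above background, so only a bound can be given. Ntn5 passed the filter through the CO arrays alone. Its limma adjusted p of 8.34e-05, for measured means of -6.69 and -8.69, thus rests on HFD signals not well above background. For the bound, the mean of the CO arrays was set against a limit on each HFD array. That limit was the lowest signal of any probe well above background, or the signal of Ntn5 where that was higher. This put the bound at 1.62-fold. The bound is not a strict minimum, since the limit averaged -7.39 and Rgmb, at -7.03 in HFD replicate 2, was not well above background. The Ntn5 call was lost with normexp background correction. Ntn3 (-0.35) and Ntn4 (-0.58) fell, and Ntn4 was well above background on 5 of 6 HFD arrays. The membrane-anchored netrin-G genes were called in opposite directions, with Ntng1 at 0.65 and Ntng2 at -0.52. Ntng1 is also 1 of the 10 thalamic markers counted above. Ntng2 was well above background on 3 of 6 HFD arrays, the groups overlapped, and its call was lost in 13 of the 21 settings in which it was fitted.

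Of the 7 netrin receptors, Dcc and Unc5c were higher, Unc5a was lower and 4 were not called. These shares were 28.6% higher and 14.3% lower, against 21.9% and 44.5% of all genes tested. Unc5cl, which the symbol rule also found, resembles Unc5 receptors in its intracellular part and is no netrin receptor. Dcc, the attractive receptor, had CO levels of 3.63, 3.99, 4.20, 4.21 and 3.49. The HFD samples reached 5.90 at the lowest, 6.17 at the median and 6.24 at the highest. Every HFD sample was far above every CO sample, and HFD replicate 1 was the lowest of its group. Dcc was 4.72-fold higher (log2 difference 2.24, SE 0.14, limma adjusted p = 2.51e-07), the largest difference among the 76 genes. This value rests on 1 of 3 Dcc probes, since a further probe was well above background on 1 CO array and the other on 0 arrays, and neither could be tested. Unc5c, a repulsive netrin receptor, was 0.85 higher without overlap, and Unc5a was 0.45 lower with overlap. Unc5b (-0.07), Neo1 (0.12), Dscam (-0.01) and Dscaml1 (-0.11) were not called, nor was Unc5cl (-0.03). Rgma, a repulsive ligand of Neo1, fell by 0.42 on the log2 scale without overlap of the groups.

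**Figure D2:**
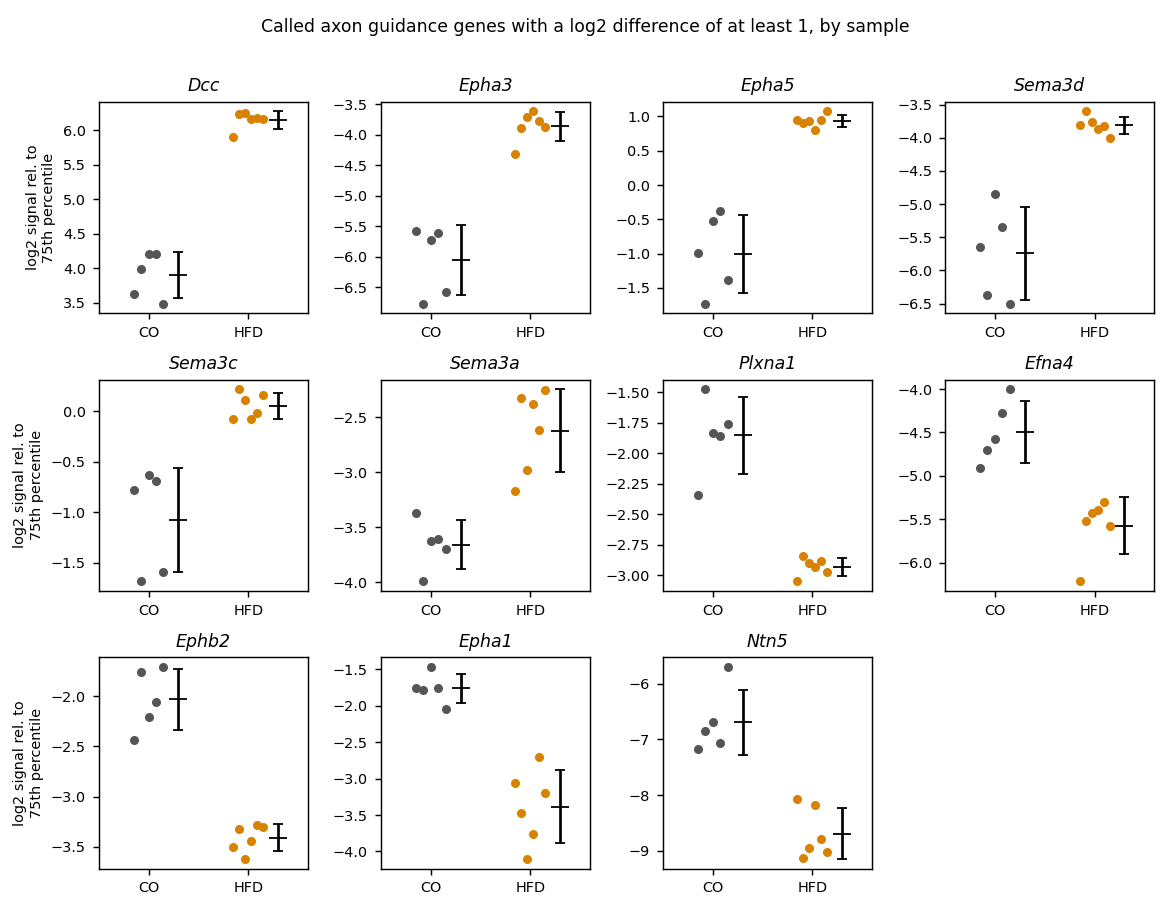
Levels of the 11 called guidance genes with a measured log2 difference of at least 1 (Ntn5 was not well above background on any HFD array, and its difference is known only as a bound), by sample (log2 signal relative to the array's 75th percentile), each with its own axis; points are samples (CO n = 5, HFD n = 6) and bars show mean and SD. The groups do not overlap in any of the 11 panels, and CO is the more scattered group in 9 of the 11, all but Epha1 and Sema3a.

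The groups also differed in spread. The median SD over the guidance genes was 0.203 in CO and 0.149 in HFD, against 0.165 and 0.135 over all genes tested, and the SD was larger in CO for 48 of 76. Among the 19 genes called higher, the median deviation from the mean of all samples was -0.55 in CO replicate 2, -0.48 in CO replicate 5 and between -0.35 and -0.21 in the other CO samples. Those 2 samples also stood at the far end for the 25 genes called lower, with median deviations of 0.39 and 0.51 against 0.19 to 0.26. The summed striatal level in CO replicates 1 to 5 was 6.81, 7.11, 5.62, 4.97 and 6.57, and the summed thalamic level 4.44, 4.26, 4.66, 4.52 and 3.84. The part of these levels in the spread of the CO samples was not tested.

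Several guidance genes gave a different answer on another probe. Of the 76 genes 57 had 1 tested probe and 19 had at least 2. Of the 12 with at least 2 called probes, 9 were called in the same direction and 3 in opposite directions, against 15.1% of such genes on the whole array. The 9 were Efna3, Ephb6, Ntng1, Plxnd1, Robo2, Sema3c, Sema5b, Sema6d and Unc5c.

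The 3 genes with opposite probes were Epha5, Sema3a and Ephb4. The other Epha5 probe had CO levels of -0.21, 0.68, -0.37, 0.32 and 0.72. Its HFD levels ran from -0.79 over a median of -0.25 to -0.02. The groups overlapped on that probe, where the log2 difference was -0.56 (SE 0.22, limma adjusted p = 0.0374 over all probes tested). For Sema3a the other probe had CO levels of -5.99, -5.79, -5.72, -6.00 and -5.63. Its HFD levels were at lowest -6.83, at the median -6.63 and at highest -6.33. This probe separated the groups in the opposite direction, with a log2 difference of -0.79, and it was well above background on 4 of 6 HFD arrays. Ephb4, a receptor of veins and of Efnb2, had CO levels of -2.99, -3.43, -2.85, -3.20 and -3.04 on its brightest probe. On that probe its HFD levels ran from -2.89 over a median of -2.75 to -2.60. The groups overlapped and the log2 difference was 0.35 (SE 0.10). The other Ephb4 probe gave -0.39 (SE 0.08), with CO levels from -4.39 to -4.01 all above the HFD levels from -4.61 to -4.42. Among 10 markers of vessel walls (endothelium and pericytes), HFD was higher for 5 and lower for 3, and 2 were not called, with a summed level of 4.33 to 4.50 in CO and 4.09 to 4.28 in HFD.

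In 7 genes with several probes not all were called. Nrp2 was -0.13 on its brightest probe and 1.06 (SE 0.11, limma adjusted p = 8.48e-06) on a probe assigned to another transcript, where the CO levels of -0.84, -1.42, -1.04, -1.31 and -1.46 all lay below the HFD levels of -0.30 to -0.05. Epha7 was likewise not called on a pair of probes of 1 transcript (-0.07 and 0.15) and 1.22 higher (SE 0.12, limma adjusted p = 6.29e-06) on a probe assigned to another. Both genes have transcript forms that differ in the intracellular part. Efnb2 was 0.04 on its brightest probe and -2.12 on another, which was well above background on 1 of 6 HFD arrays. The remaining pairs were -0.11 and -0.79 for Dscaml1, 0.20 and 0.42 for Plxnc1, 0.25 and -0.12 for Plxna4, and 0.09 and 0.26 for Ntn1. With the mean over its tested probes, the log2 difference of Epha5 was 0.69 and that of Ephb4 -0.016. Probe sequences were not used here.

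**Figure D3:**
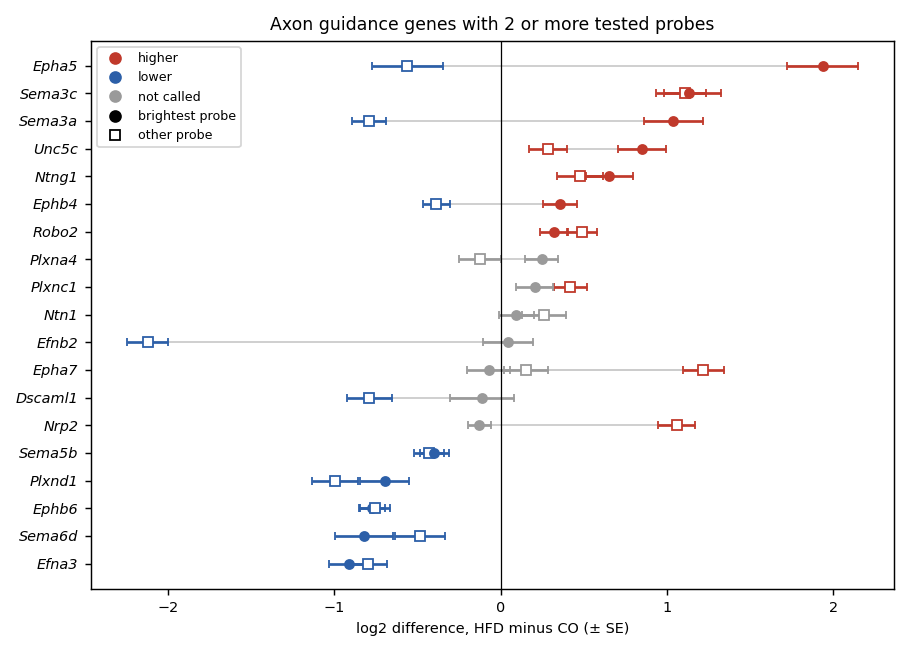
Log2 difference (HFD minus CO, bars are SE) of every tested probe of the 19 guidance genes with at least 2 tested probes; circles mark the brightest probe, squares the others, and colours the call over all probes tested. Epha5, Sema3a and Ephb4 have called probes on both sides of 0, and Plxna4 is not called here because the adjustment runs over probes.

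Guidance genes are long, and the long ones were more often higher. The median genomic span, from the gene table of GRCm38.p6, was 57.1 kb for the 76 genes against 20.8 kb for all genes tested. It was 321 kb for the guidance genes called higher, 23.3 kb for those called lower and 77.3 kb for those not called. The same order held over all genes, with 39.5 kb for genes called higher and 15.4 kb for genes called lower. When all genes were split by span into 4 bins of equal size, the share called higher was 9.75%, 16.9%, 24.2% and 36.8% from the shortest to the longest bin, and the share called lower was 56.1%, 50.1%, 42.3% and 29.7%. Guidance genes were called higher in 0 of 3, 1 of 19, 3 of 15 and 15 of 39 genes, and lower in 3, 9, 6 and 7. The longest bin held 39 of the 76 guidance genes, and the share of these called higher (38.5%) was close to that of all genes in it. Robo1 and Dscam are long and were not called, and Ephb2 is in the longest bin and was lower. No test was made of span.

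**Figure D4:**
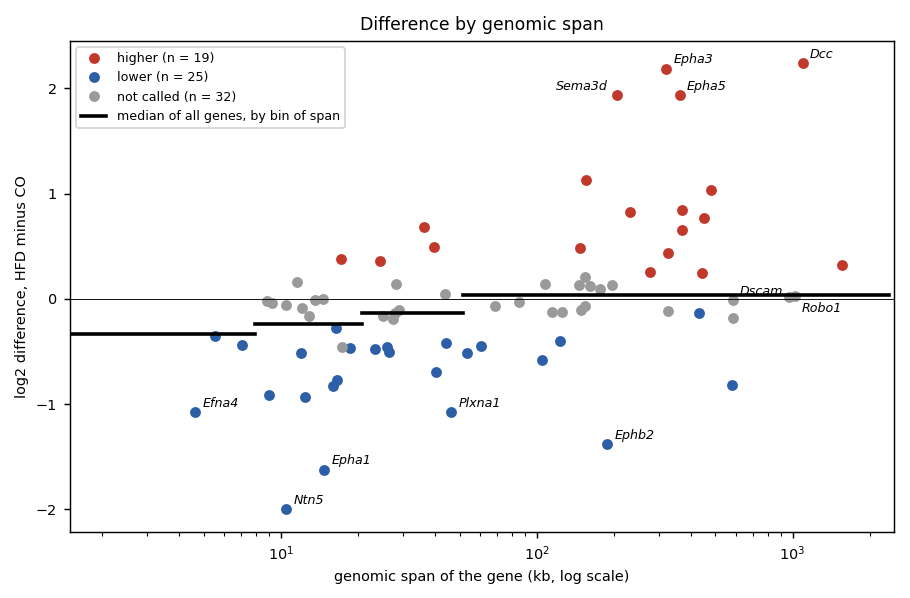
Log2 difference (HFD minus CO) of the 76 guidance genes against genomic span in kb (log axis), coloured by call, with the median of all genes tested in each of 4 equal bins of span as black lines. The lines rise from -0.34 to 0.04, and 15 of the 19 genes called higher lie in the longest bin.

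By position, all 7 guidance genes on chromosome 5 were called higher on their brightest probe, namely Sema3a, Sema3c, Sema3d, Sema3e, Epha5, Ephb4 and Slit2. Another probe was called lower for Sema3a (-0.79), Epha5 (-0.56) and Ephb4 (-0.39), so this count depends on the choice of probe. Over all 1020 genes tested on this chromosome 21.3% were higher and 44.0% lower. The 4 Sema3 genes lie in 5.35 Mb (chr5:12383161-17730268, GRCm38.p6), and of 8 other tested genes that start there 5 were higher, 0 lower and 3 not called, with a median log2 difference of 0.40. Chromosome 9 held 9 guidance genes, including Sema3b and Sema3f, of which 0 were higher, 3 lower and 6 not called. These chromosomes were picked after the values were seen.

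Genes that work beside or below these families were counted as well, against the shares of 21.9% higher and 44.5% lower over all genes tested. Of 36 further guidance cues, receptors and adhesion molecules 34 were measured, with 15 higher (44.1%), 8 lower (23.5%) and 11 not called and a median log2 difference of 0.14. The smallest adjusted p-values belonged to the adhesion molecules Cntn1 (1.31), Cntn3 (1.19) and Nfasc (0.70) and the receptor phosphatase Ptprd (1.02) among those higher. Among those lower they belonged to the growth inhibitor Rtn4 (-1.90), the adhesion molecule L1cam (-0.64), the hedgehog co-receptor Gas1 (-0.44) and the Wnt receptor Ryk (-0.28). All 8 were called without overlap of the groups.

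Of 60 genes of intracellular signalling below guidance receptors 12 were higher (20%), 28 lower (46.7%) and 20 not called, with a median of -0.17, all close to the values of all genes tested. Higher were, by smallest adjusted p, the kinases Rock1 (2.27) and Rock2 (1.29), the Ras regulator Rasa1 (2.01) and the adaptor Nck1 (0.73). Lower were the GTPase Rnd1 (-2.74), which binds plexins, the cofilin kinase Limk1 (-1.16), the actin regulator Vasp (-0.66) and the kinase Src (-0.68). Scaling to the spike-in RNAs changed the counts of this list to 4 higher and 53 lower.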

How the data were processed

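Hypothalamic RNA was hybridised to Agilent 4x44K mouse arrays with 1 dye. The deposited files hold scanner output, whose intensity values the authors obtained with Agilent Feature Extraction, with background subtracted. The submitters' processing notes name version 10.8, and the array headers name version 10.7.3.1. How the authors scaled arrays against each other was not given in the sources used here. All 11 arrays held different values.

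From the processed signals, log2 values minus the 75th percentile of each array were computed, control and outlier spots left out and spots of a probe averaged. Of 39429 mouse probes 26363 were named by accession through a RefSeq gene table (GRCm38.p6), giving 19983 genes. A probe was kept when 5 or more of the 11 arrays measured it well above background, and the brightest probe represented a gene. Groups were compared with limma 3.58.1 (R 4.3.3; lmFit and eBayes, two-sided, Benjamini-Hochberg over 17185 genes, threshold 0.05), and further probes of a gene in the same fit over 31796 probes. The fits were tested on simulated data. The number of arrays limits the precision, and single values carry the SD between samples.

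The genes and lists were chosen with earlier results of these data known. All measured genes of the symbol rule are named. Values by sample are given for called genes with a log2 difference of at least 1, for genes with probes called in opposite directions, and for Dcc, Ntn1, Robo1 and Robo2. Of the further lists, the 4 genes with the smallest adjusted p in each direction are named. Summed marker levels are log2 of the summed relative signals.

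Alternatives were quantile, median and spike-in scaling, normexp background correction (offset 50), no filter and a filter on all arrays, the mean over probes, slide, replicate number and leading number of the CO labels as blocks, array weights, Rank Product (100 permutations, percentage of false positives under 0.001), a 2-fold threshold and leaving out each array. Normexp used the median spot signal, because the files used here hold no mean signal. Marker lists for cortex and hippocampus (1 of 11 higher, 5 lower), young neurons (2 of 10 higher, 0 lower), astrocytes (2 and 2 of 10) and microglia (3 higher and 6 lower of 10) were counted as well.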

Additional observations from a re-analysis of the deposited data

Results flagged for a closer look

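In 9 of 152 groups of samples, 1 sample stood apart from the others by Dixon's criterion, which chance meets in about 1 of 20 groups. Dcc was 5.90 in HFD replicate 1 (others 6.15 to 6.24). Efna4 was -6.22 in HFD replicate 1 (others -5.58 to -5.30). Slit1 was 0.80 in HFD replicate 1 (others 1.44 to 1.78) and 1.91 in CO replicate 5 (others 1.43 to 1.53). Robo3 was -0.21 in CO replicate 5 (others -1.40 to -1.08). Nrp1 was -3.33 in CO replicate 2 (others -2.66 to -2.53). Sema3b was -0.65 in CO replicate 3 (others -1.13 to -1.06). Sema3e was -2.05 in HFD replicate 3 (others -1.75 to -1.58), and Plxnd1 was 1.40 in HFD replicate 6 (others 0.90 to 1.06).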

How the results depend on the processing

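Of the 44 guidance genes called, 23 kept their direction and their call in every alternative limma fit that held them, up to 22 for a gene. Those fits include the ones without 1 array. They do not include Rank Product or the 2-fold threshold, under which far fewer genes were called, as given below. Leaving out each array in turn gave 18 to 20 genes higher and 22 to 26 lower. The calls lost in these fits were those of Ephb1 (without CO replicates 1, 2, 3 or 5 or HFD replicates 2, 3, 4 or 5), Ephb3 (CO 2, 4 or 5, HFD 1 or 2), Ntng2 (CO 2, 4 or 5, HFD 1, 2, 3, 5 or 6) and Plxna4 (CO 1, 2 or 3, HFD 1, 2, 3, 5 or 6), and the calls gained those of Epha8, Neo1, Robo3, Sema3b, Sema4a, Sema4d, Sema4f and Slit3. Scaling to the spike-in RNAs moved most values down. It gave 5 guidance genes higher and 62 lower, a median of -0.74 (all genes -0.85), 4 genes with every HFD value above and 50 with every HFD value below the CO values, 5 higher and 22 lower among further cues, and 4 higher and 53 lower in intracellular signalling. Under it the sign turned for Efna5 (-0.42), Efnb2 (-0.63), Epha2 (-0.54), Epha4 (-0.18), Epha6 (-0.66), Ephb4 (-0.32), Neo1 (-0.55), Nrp1 (-0.54), Ntn1 (-0.58), Ntng1 (-0.019), Plxna2 (-0.54), Plxna4 (-0.43), Plxnc1 (-0.47), Robo1 (-0.64), Robo2 (-0.35), Sema3b (-0.52), Sema4b (-0.18), Sema4d (-0.53), Sema4g (-0.67), Sema6b (-0.29) and Slit2 (-0.24), because HFD spike-in signals lay 0.67 higher relative to the 75th percentile. Normexp correction gave a median of -0.00657 (all genes -0.07), 12 genes with every HFD value below, 1 gene with opposite probes and 3 further cues lower, turned Ntn4 (0.066) and Ntng2 (0.062), and ended the calls of Efna4, Ntn5, Sema3g, Ntng1, Ephb3, Ephb4 and Plxna4. Scaling to the median gave a median of -0.013 (all genes -0.12). Quantile normalization turned Ntng2 (0.017) and Unc5cl (0.41). The mean over probes turned Efnb2 (-1.04), Epha7 (0.43), Ephb4 (-0.016) and Nrp2 (0.46), and ended the calls of Sema3a (0.12) and Plxna4 (0.061). Rank Product called 4 genes higher and 1 lower, and a 2-fold threshold on measured differences left 6 and 5, Ntn5 included although its bound is under 2-fold. For changes not shown by the setting itself, the cause was not tested.

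With the replicate number as a block, 17 guidance genes were higher and 25 lower. Samples with the same number had correlations of 0.18, -0.03, -0.10, 0.03 and 0.17 in their deviations from the group means. The CO samples 1 and 5 alone correlated best with their own number. These correlations have no reference spread and cannot settle whether the numbers pair the samples. HFD replicate 6 has no partner.

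Dim probes limit Ntn5, Ntng2, Ntn4 and the other probes of Dcc, Efnb2 and Sema3a. With 5 and 6 arrays in separate scan sessions, diet and session cannot be told apart.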
